A study of Mus musculus with 6 samples.

Results

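Respiratory complex I, the NADH dehydrogenase of the mitochondrial inner membrane, was followed through its nuclear genes in macrophages exposed to resolvin D1 (RvD1). The genes were taken by name, as all rows of the expression table whose symbol starts with Nduf and holds no -ps, which gave 44 of 38087 genes. Of these, 38 carry subunit symbols (Ndufa, Ndufb, Ndufc, Ndufs, Ndufv) and 6 are assembly factors (Ndufaf). The rule used names alone, but this group of genes was chosen with earlier results of these data known. Among the subunit symbols, Ndufa4 is now counted with cytochrome c oxidase and Ndufa4l2 is its paralog, so these 2 genes are described apart from the 36 others. Counts and medians over the 38 subunit genes still include them.

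RNA was sequenced after poly-A selection from bone marrow-derived macrophages of male C57BL/6J mice, in 3 libraries of cells given 10 nM RvD1 for 6 h and 3 of untreated cells. The protocol gives the mice's age as 8 to 10 weeks and the sample characteristics give it as 2 to 4 months. Marrow was grown for 7 days with macrophage colony-stimulating factor at 10 ng/ml, and the cells of both groups were then plated again without that factor for 24 h before the exposure. The labels name no vehicle for the untreated cells. They also leave unsaid whether libraries within a group are from different mice or dishes, and the spread that p-values rest on here may thus be technical. RvD1 is a lipid mediator made from docosahexaenoic acid and acts on the receptor ALX/FPR2, which the study's title places in myeloid cells of ischemic limbs.

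Complex I takes electrons from NADH, passes them over a flavin and a chain of iron-sulfur clusters to ubiquinone, and pumps protons out of the matrix. Its peripheral arm reaches into the matrix and carries the electron path, while its membrane arm holds the proton pumps. Core subunits do the catalysis, accessory subunits surround and stabilise them, and assembly factors build modules of the enzyme without staying in it. In macrophages, complex I is also known as a source of reactive oxygen species, and its activity shifts with the cells' inflammatory state. The mitochondrially encoded core subunits were not analysed here.

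Values are log2 normalized read numbers, as read from the deposited table, in which 0 is the floor, and library values are given in the order of replicates 1, 2 and 3. From the value of 1 read, the depth was estimated at 9.06 to 14.3 M reads in untreated and 11.15 to 16.3 M in RvD1 libraries. Macrophage markers were abundant, with Lyz2 and Csf1r at mean values of 15.98 and 14.24. Neutrophil and stromal markers were present too. The 7 neutrophil markers summed to 3320 to 11680 normalized reads in untreated and 4190 to 11000 in RvD1 libraries, and none was at 0 in all libraries. For the 5 stromal markers, among them the collagen genes Col1a1 and Col1a2, the sums were 38240 to 45190 and 35270 to 51320. Col1a1 and Col1a2 had mean values of 14.15 and 14.11, close to that of Csf1r. The 4 endothelial markers summed to 323 to 539.9 and 419.8 to 1177, highest in RvD1 replicate 1. All 3 ranges overlapped between the groups, and no marker in any list passed the limma test. At an unadjusted p under 0.05 in limma, 1 neutrophil, 1 stromal and 1 endothelial marker were higher with RvD1, and 0 in any list were lower. Of all tested genes, 10.3% were higher and 9.65% lower at that threshold. At 0 in all libraries were Ms4a1 and Pax5 of B cells and Cd3e of T cells. The part of other cells in the results was not tested. In such bulk samples, fewer cells of a type and less RNA per cell cannot be told apart.

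All 44 genes were above 0 in enough libraries to be tested, and the lowest mean value was 5.57 for Ndufa4l2. With RvD1, the subunit genes Ndufa3 and Ndufs7 fell and no member rose, while the other 42 did not pass the test (limma on the log2 values, Benjamini-Hochberg adjusted over 18899 genes, threshold 0.05). That is 2 of 44 members, where 1.12% of all tested genes passed, 0.556% as lower and 0.561% as higher. Neither call held in limma fits without the filter on low values, without a mean trend in the variance prior or after correcting for the length and GC content of transcripts, and each of these gave 0 members. Negative log2 fold changes were found in 33 of 38 subunit genes and in 3 of 6 assembly factors, against 49.2% of all tested genes. The median log2 fold change was -0.18 over the subunit genes, 0.01 over the assembly factors and 0.00 over all tested genes. On the lower side, 17 members reached an unadjusted p under 0.05 in limma, and 2 did on the higher side, where 9.65% and 10.3% of all tested genes did. The values of the groups did not overlap in 23 members on the lower side and 2 on the higher side, against 12.8% and 12.6% of all tested genes.

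**Figure D1:**
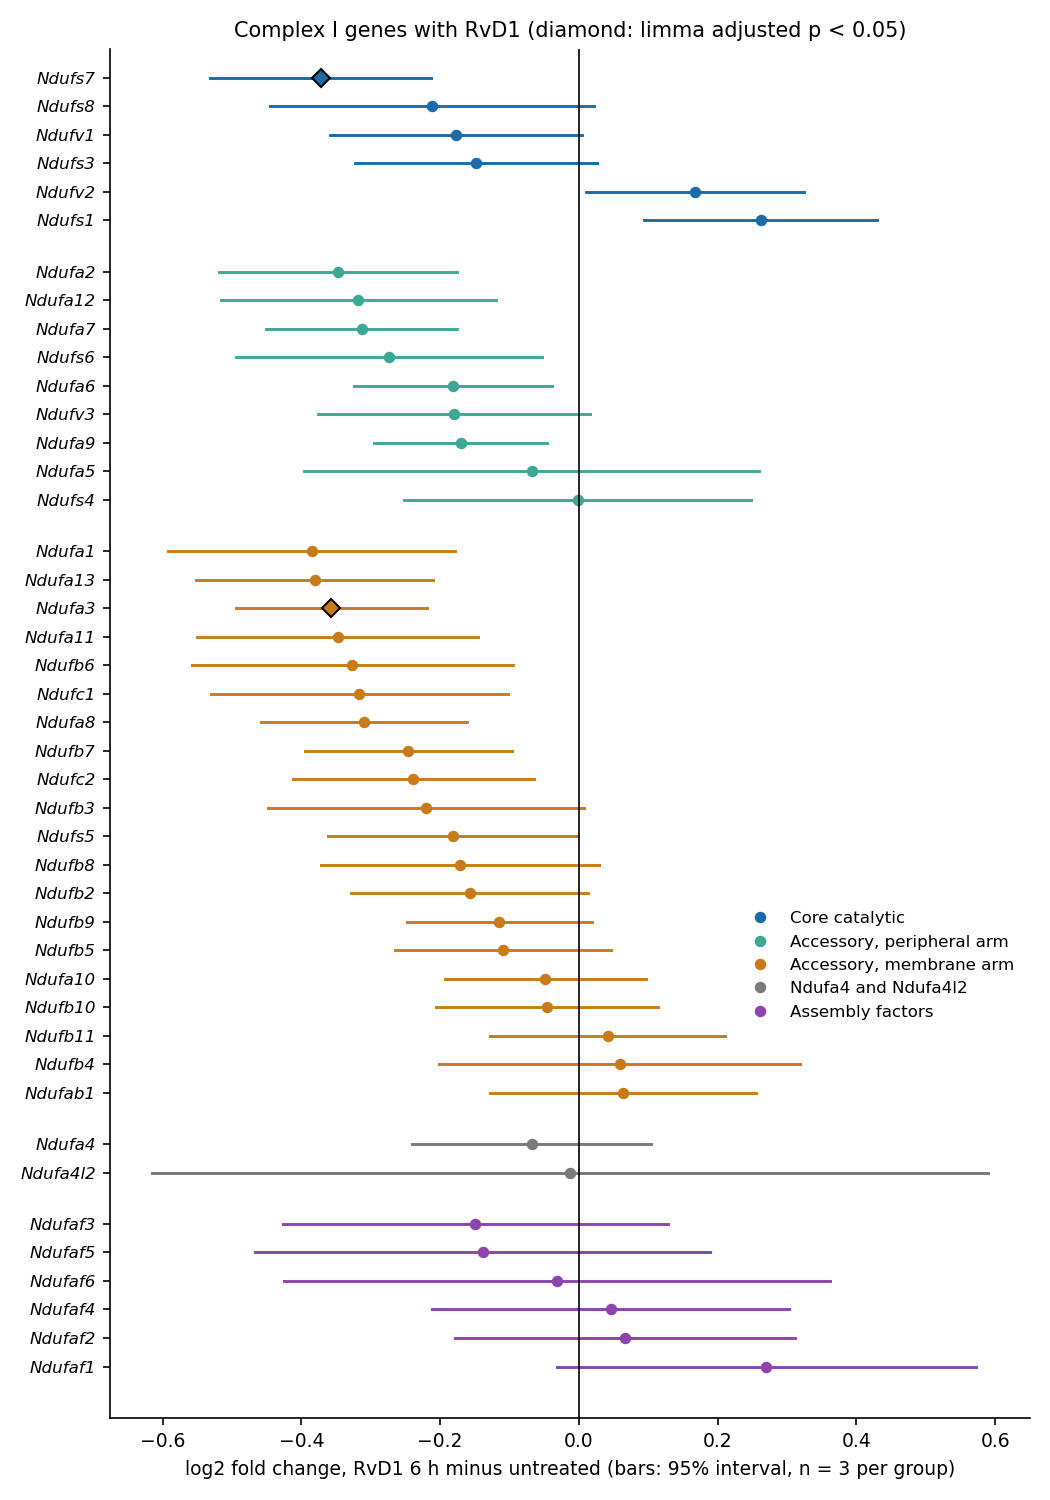
The log2 fold change of each of 43 genes (horizontal axis, RvD1 minus untreated) is drawn as a point with its 95% interval from limma, grouped by role, with n = 3 libraries per group; diamonds mark the 2 genes that passed the test. Most subunit genes lie left of 0, Ndufs1 and Ndufv2 lie right of it, and the 6 assembly factors lie on both sides.

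Start regions of the members were searched for the letters of factors known to act on nuclear respiratory genes, because most subunit genes had negative values. RefSeq windows of 300 bases (250 before and 50 after the start, GRCm38.p6) were found for 38 of the 44 genes. On both strands, CGCATGCG, the core of the motif of the factor NRF1, stood in 4 of 38 members (10.5%), against 2.07% of 27025 genes. The letters AAGATGGC, part of the YY1 motif, stood in 7 of 38 (18.4%) against 3.19% of genes. CCGGAAGT of the ETS family stood in 1 (2.63%, against 4.31%) and TCAAGGTCA of the ERR receptors in 0 (against 0.466%). The 27025 genes are all those with a window and were not limited to genes tested here. The letters were chosen with the members' values and the counts of longer forms known. A match is a description and not a binding site.

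The AAGATGGC matches are shown because both genes that fell carry one and because all 7 lie after the start, on the gene's own strand, with their ATG at the annotated start codon. They are given 5′ to 3′ on that strand, with the match in capitals.
Ndufa3: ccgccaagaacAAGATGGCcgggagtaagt
Ndufs7: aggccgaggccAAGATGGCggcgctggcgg
Ndufc1: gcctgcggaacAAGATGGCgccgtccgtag
Ndufa9: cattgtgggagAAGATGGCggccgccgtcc
Ndufs6: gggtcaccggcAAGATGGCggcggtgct
Ndufs4: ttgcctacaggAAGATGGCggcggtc
Ndufb8: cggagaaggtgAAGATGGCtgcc
They lie at chr7:3617384-3617413 (plus strand) for Ndufa3, chr10:80249462-80249491 (plus) for Ndufs7, chr3:51408915-51408944 (minus) for Ndufc1, chr6:126849097-126849126 (minus) for Ndufa9, chr13:73328433-73328460 (minus) for Ndufs6, chr13:114388045-114388070 (minus) for Ndufs4 and chr19:44555393-44555415 (minus) for Ndufb8. Each spans an annotated start codon, with 5′ UTR bases before it. The log2 fold changes of these 7 genes ran from -0.37 for Ndufs7 to 0.00 for Ndufs4. No test was made of whether these letters bear on the values.

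The NRF1 core letters are shown for the 4 genes that hold them, which are 2 subunit genes and 2 assembly factors. CGCATGCG reads the same on both strands, so a match has no orientation, and the letters are printed along the gene's own strand.
Ndufa8: gtcgctggagaCGCATGCGcagatggtacc
Ndufa11: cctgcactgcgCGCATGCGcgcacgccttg
Ndufaf4: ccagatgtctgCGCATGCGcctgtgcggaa
Ndufaf5: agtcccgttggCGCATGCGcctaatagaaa
Ndufa8 has its match at chr2:36049329-36049358 (minus strand), Ndufa11 at chr17:56717692-56717721 (plus), Ndufaf4 at chr4:24897960-24897989 (plus) and Ndufaf5 at chr2:140170652-140170681 (plus). In Ndufa8, Ndufa11 and Ndufaf4 the letters lie before the start and in Ndufaf5 after it. These genes had log2 fold changes of -0.31, -0.35, 0.05 and -0.14. The SE was 0.11 for Ndufaf4 and 0.14 for Ndufaf5. Without each library in turn, Ndufaf4 lay between -0.06 and 0.17, so its positive sign did not hold throughout. With transcript length and GC content corrected for, the values were -0.17, -0.15, -0.15 and -0.15. Whether the NRF1 letters bear on the values was not tested.

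Ndufs7 and Ndufs1, both core subunits of the peripheral arm, stood at opposite ends of the core. Ndufs7 (chr10:80249121-80256794, plus strand, mm10) holds the last iron-sulfur cluster before ubiquinone. Its values were 9.25, 9.40 and 9.36 untreated and 8.96, 8.89 and 9.05 with RvD1. Every RvD1 library was below every untreated one, and Ndufs7 reached 0.773 of its untreated level (limma adjusted p = 0.0499), with a 95% interval of 0.692 to 0.863 over 3 libraries in each group. The call sat at the threshold and ended in all 6 fits that left out 1 library, with limma adjusted p between 0.0566 and 0.189 and log2 fold changes between -0.42 and -0.34. With every library centred on its median, limma gave an adjusted p of 0.0587.

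Ndufs1 (chr1:63143596-63176833, minus strand), the largest core subunit and carrier of several iron-sulfur clusters, had values of 10.13, 10.13 and 9.95 untreated and 10.29, 10.44 and 10.26 with RvD1. All RvD1 libraries were above all untreated ones, but the gene did not pass over all genes (log2 fold change 0.26, SE 0.07; limma adjusted p = 0.109). Ndufv2, which holds a cluster beside the flavin-bearing Ndufv1, had the other positive value of the core, with 9.47, 9.47 and 9.31 untreated and 9.51, 9.66 and 9.58 with RvD1 (0.17, SE 0.07; limma adjusted p = 0.225). Its groups were apart as well. Ndufv1, which binds NADH and the flavin, stood at -0.18 (SE 0.08; limma adjusted p = 0.260), and its groups did not overlap on the lower side. Without RvD1 replicate 2, Ndufv1 stood at -0.09. With transcript length and GC content corrected for, Ndufv2 and Ndufv1 were at 0.06 and -0.03.

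The gap between these transcripts within a library was computed after their values were seen and carries no test. Ndufs1 minus Ndufs7 was 0.88, 0.73 and 0.59 on the log2 scale untreated and 1.33, 1.55 and 1.22 with RvD1. Ndufv2 minus Ndufv1 was -0.37, -0.46 and -0.52 untreated and -0.27, 0.13 and -0.19 with RvD1. Both signed differences were higher in each RvD1 library than in any untreated one. That had to be so, because the groups of each pair's genes were already apart in opposite directions, and it adds no support. The gap between Ndufs1 and Ndufs7 was wider with RvD1 and that between Ndufv2 and Ndufv1 narrower. With transcript length and GC content corrected for, Ndufs1 was at 0.18 and Ndufs7 at -0.15.

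Of the other core genes, Ndufs3, which sits towards the ubiquinone end of the peripheral arm, stood at -0.15 (SE 0.08), and Ndufs8, which carries a pair of iron-sulfur clusters, at -0.21 (SE 0.10), neither past the test. Across the 7 core genes, 1 passed as lower, 5 had negative values, and the median log2 fold change was -0.15. With transcript length and GC content corrected for, that median was -0.03. The accessory genes of the membrane and peripheral arms then had medians of -0.15 and -0.13.

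The plot of values by library shows how far apart the groups lay in the members described here.

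**Figure D2:**
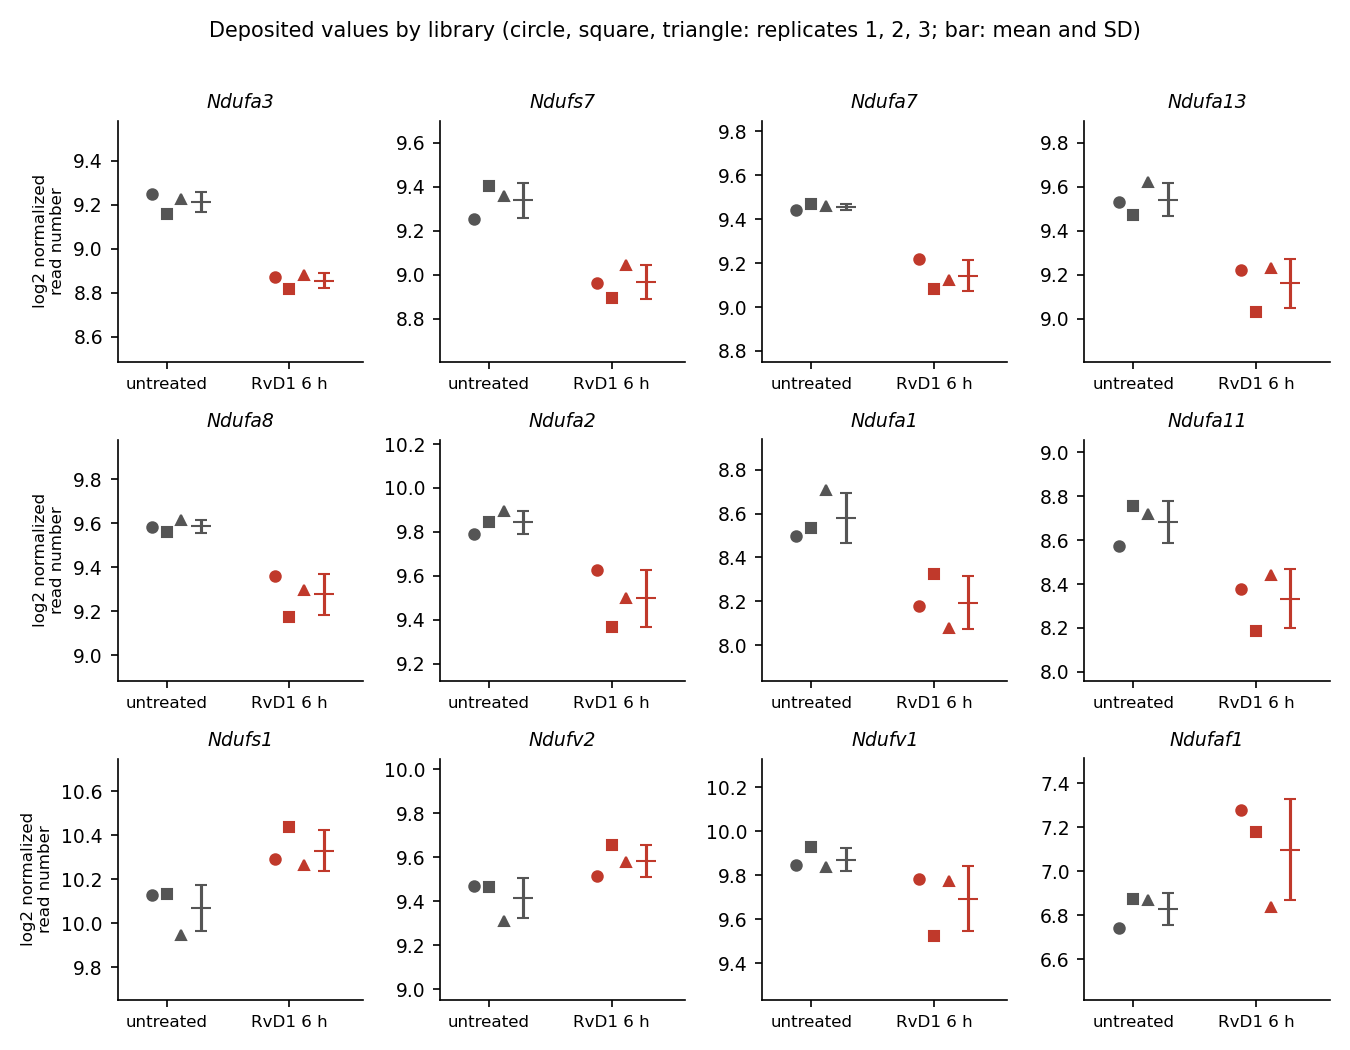
Each panel gives the deposited log2 normalized read number of 1 gene (vertical axis) in untreated and RvD1 libraries, with a circle, square and triangle for replicates 1, 2 and 3 and a bar for the mean and SD (n = 3). All panels span 1.1 log2 units. Groups are apart in every panel except that of Ndufaf1, where RvD1 replicate 3 lies among the untreated libraries.

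Accessory subunits of the membrane arm formed the largest group, with 20 genes. Of these, 1 passed as lower, none rose, 17 had negative values, and the median log2 fold change was -0.20. Ndufa3 (chr7:3617373-3620327, plus strand), a small accessory subunit of that arm, had values of 9.25, 9.16 and 9.23 untreated and 8.87, 8.82 and 8.88 with RvD1. The RvD1 libraries lay below all untreated ones with little spread in either group, and Ndufa3 was at 0.781 of its level in untreated cells (95% interval 0.710 to 0.859; limma adjusted p = 0.0400). Its call held without RvD1 replicate 1 (limma adjusted p = 0.0457) and ended without each of the 5 other libraries in turn (0.119 to 0.156), with log2 fold changes between -0.38 and -0.34 throughout.

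Close behind without passing were Ndufa13, Ndufa8, Ndufa1 and Ndufa11. Ndufa13, also known as GRIM-19, had 9.53, 9.47 and 9.62 untreated and 9.22, 9.03 and 9.23 with RvD1 (log2 fold change -0.38, SE 0.08; limma adjusted p = 0.0548). For Ndufa8, which lies on the side of the intermembrane space, the values were 9.58, 9.56 and 9.62 against 9.36, 9.18 and 9.29 (-0.31, SE 0.07; limma adjusted p = 0.0628). In both genes all RvD1 libraries were lower than all untreated ones.

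Ndufa1, an X-linked gene for a short subunit needed for assembly, had the most negative value of all members. Its libraries read 8.50, 8.53 and 8.71 untreated and 8.18, 8.32 and 8.08 with RvD1 (-0.39, SE 0.09; limma adjusted p = 0.0771). Ndufa11, which lies where complex I meets complex III in the respiratory supercomplex, read 8.58, 8.75 and 8.72 against 8.38, 8.19 and 8.44 (-0.35, SE 0.09; limma adjusted p = 0.0870). The groups were apart in both. Ndufb6, Ndufc1, Ndufb7 and Ndufc2 had log2 fold changes of -0.33, -0.32, -0.25 and -0.24, each with groups apart. Ndufb3, Ndufs5, Ndufb8, Ndufb2, Ndufb9, Ndufb5, Ndufa10 and Ndufb10 followed, between -0.22 and -0.05. The positive values of this group belonged to Ndufab1, the mitochondrial acyl carrier protein, and to Ndufb4 and Ndufb11, at 0.06, 0.06 and 0.04, all with intervals that included 0.

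All 9 accessory genes of the peripheral arm had negative values, none passed, and their median log2 fold change was -0.18. Ndufa7 came closest, with 9.44, 9.47 and 9.46 untreated and 9.22, 9.08 and 9.12 with RvD1 (-0.31, SE 0.06; limma adjusted p = 0.0534). Ndufa2, an accessory subunit with a thioredoxin-like fold, read 9.79, 9.84 and 9.90 against 9.63, 9.37 and 9.50 (-0.35, SE 0.08; limma adjusted p = 0.0672). The untreated values were tight in both, and no RvD1 library reached them. Ndufa12, Ndufs6, Ndufa6, Ndufv3, Ndufa9 and Ndufa5 lay between -0.32 and -0.07. Ndufs4, whose loss in mice is a common model of complex I disease, was at -0.0014 (95% interval -0.25 to 0.25). Without each library in turn, Ndufs4 lay between -0.10 and 0.07 and Ndufa5 between -0.18 and 0.07, so their negative sign did not hold throughout.

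Ndufa4 read 10.05, 10.01 and 9.91 untreated and 9.80, 10.05 and 9.91 with RvD1, with overlapping groups (-0.07, SE 0.08; limma adjusted p = 0.668). Ndufa4l2, known as a target of hypoxia-inducible factor, was the lowest member by mean and read 5.76, 5.61 and 5.35 against 6.02, 4.97 and 5.69 (-0.01, 95% interval -0.61 to 0.59). The RvD1 libraries of Ndufa4l2 lay on both sides of the untreated ones.

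Assembly factors were expressed at lower levels per kb of transcript than most subunits, as the plot of level against change shows. Ndufa4 and Ndufa2 ranked 1 and 2 among the 44 genes per kb, at 10.67 and 10.48 (log2 normalized reads per kb of the longest coding transcript). The 6 assembly factors ranked between 34 for Ndufaf2 at 7.69 and 42 for Ndufaf6 at 5.79. Ndufb2 ranked last at 5.61 and Ndufab1 37 at 6.41, where the longest annotated transcripts, of 4371 and 3479 bases, lower the value if shorter ones are in use.

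**Figure D3:**
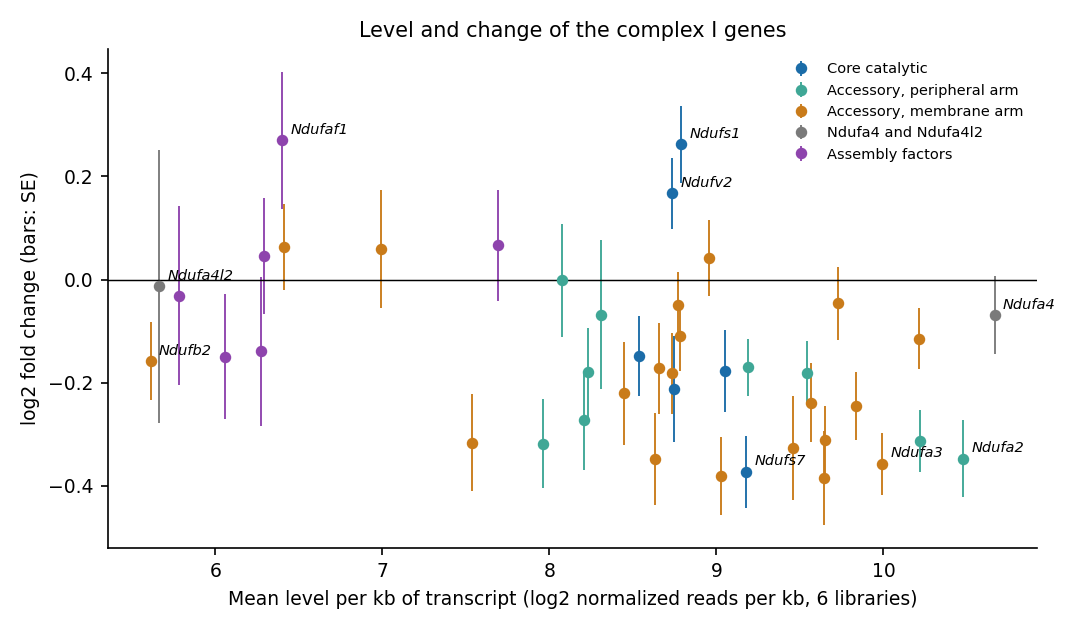
Each point is 1 of 43 genes, with its mean level per kb of transcript over the 6 libraries (horizontal axis, log2 normalized reads per kb) and its log2 fold change with RvD1 (vertical axis, bars are the SE from limma). The assembly factors sit at the left on both sides of 0, while the subunit genes above 9 lie below 0.

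Of the assembly factors, 0 of 6 passed the limma test and 0 reached an unadjusted p under 0.05. Ndufaf1, which acts in building the membrane arm, had the smallest p and the most positive value. It read 6.74, 6.87 and 6.87 untreated and 7.28, 7.18 and 6.84 with RvD1 (0.27, SE 0.13; limma adjusted p = 0.301). RvD1 replicate 3 lay below the highest untreated value, and without it the log2 fold change was 0.40. Ndufaf3, which works with Ndufaf4 on the ubiquinone module, read 6.78, 6.76 and 6.57 against 6.61, 6.40 and 6.65 (-0.15, SE 0.12). Ndufaf5, an enzyme that modifies Ndufs7, read 6.72, 6.62 and 6.34 against 6.37, 6.30 and 6.60 (-0.14, SE 0.14). The groups overlapped in both. Without each library in turn, Ndufaf3 lay between -0.21 (without untreated replicate 3) and -0.07 (without RvD1 replicate 2), and Ndufaf5 between -0.25 (without untreated replicate 3) and -0.06 (without untreated replicate 1). After the length and GC correction Ndufaf3 was at -0.01 and Ndufaf5 at -0.15. Ndufaf2, Ndufaf4 and Ndufaf6 had values of 0.07, 0.05 and -0.03. The assembly factors were less abundant than most subunits and their standard errors ran from 0.11 to 0.17, against 0.06 for Ndufa3 and 0.07 for Ndufs7. Those 2 genes passed the test, which favours small standard errors. Other subunit genes reached that range or more, such as Ndufs4 at 0.11, Ndufa5 at 0.14 and Ndufa4l2 at 0.26. Whether assembly factors and subunits differed in response was not tested.

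Reads of some members can be shared with other loci. Transcripts of 8 members matched another annotated gene at 95% identity or more over at least 200 bases, and in 7 cases that gene, a processed pseudogene, had its own row in the table. The copies held 54.0% of the summed reads of Ndufb4 with its copy, 52.9% for Ndufs5, 55.6% for Ndufab1 with its 2 copies, 47.1% for Ndufa12, 46.7% for Ndufs3, 37.3% for Ndufs6 and 25.7% for Ndufb11. Values of these 7 genes are therefore uncertain. Summed with their copies, their log2 fold changes kept their sign except for Ndufb4, which went from 0.06 to -0.05, and Ndufa12 went from -0.32 to -0.35. Ndufa3 and Ndufs7 had no such copy. Exons of 19 members overlapped those of another gene, in 17 of them on the opposite strand, and whether the counting used the strand is not known here. The overlap covered 375 of 1251 exonic bases of Ndufa13 (with Tssk6, mean value 3.81), 257 of 659 of Ndufb6 (with Smim27, 5.17) and 4 of 1022 of Ndufa3. It was largest in Ndufaf2, at 1955 of 2978 (with B230220B15Rik), and on the same strand it covered 201 of 1031 in Ndufb9.

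Fold changes across the table followed the GC content and length of transcripts, and complex I genes have short ones. The median longest coding transcript was 994 bases over the 44 members against 2543 over all tested genes, and the median GC content was 50.8% against 49.97%. Across 13024 genes with a mean value of at least 5, which are not independent replicates, Spearman's rho of the log2 fold change was -0.59 with GC content and 0.36 with length. Across the 44 members it was -0.37 with GC content and 0.46 with length, as a description. Ndufs7 and Ndufa13 have a GC content of 59.6% and 60.4%, Ndufa3 51.3%, and Ndufs1 and Ndufv2 45.1% and 42.0%.

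After a correction for length and GC content within each library, 0 members passed the limma test, where 32 of 18549 genes did (0.173%). An unadjusted p under 0.05 in limma was found for 16 members on the lower side and 1 on the higher, against 6.57% and 5.23% of these genes. Of the 44 members, 34 had negative values after it, against 49.5% of these genes. Of the members, 6 changed sign, namely Ndufb9, Ndufb10, Ndufab1, Ndufaf4, Ndufaf6 and Ndufa4l2. The median over the subunit genes went from -0.18 to -0.10. Ndufs7 went from -0.37 to -0.15 (SE 0.06; limma adjusted p = 0.400) and Ndufa3 from -0.36 to -0.26 (SE 0.05; limma adjusted p = 0.127). Ndufb7 went from -0.25 to 0.00 and Ndufs1 from 0.26 to 0.18. Ndufa13, Ndufa8, Ndufa11 and Ndufa7 went from -0.38, -0.31, -0.35 and -0.31 to -0.16, -0.17, -0.15 and -0.13, and Ndufa2 from -0.35 to -0.25. In contrast, Ndufc1 and Ndufb2, with a GC content of 44.1% and 43.7%, were further below 0 after it, from -0.32 to -0.37 (SE 0.09) and from -0.16 to -0.30 (SE 0.07), and Ndufa1 stayed near its value at -0.35 (SE 0.08). The limma adjusted p of these 3 lay between 0.186 and 0.195. Over the 22 members of lower GC content (39.5% to 50.3%) the median log2 fold change was -0.12 as deposited and -0.14 corrected. Over the 22 of higher GC content (51.3% to 60.4%) it was -0.18 and -0.04.

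**Figure D4:**
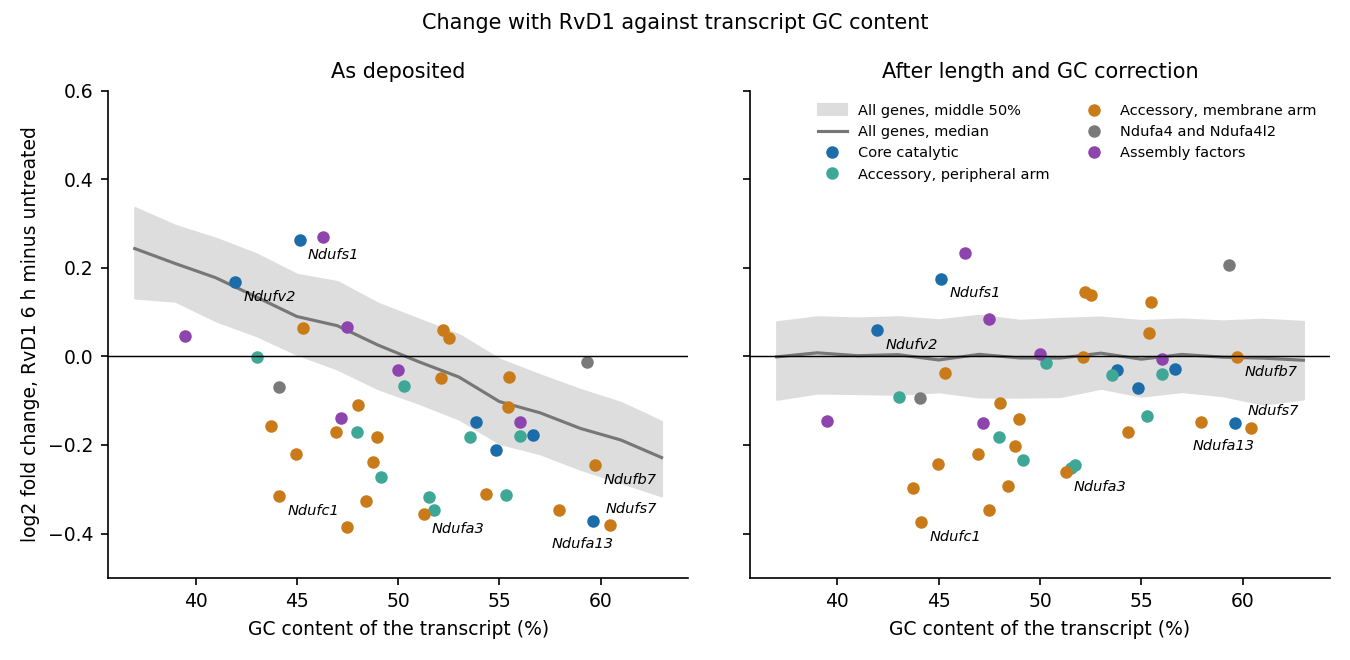
The log2 fold change with RvD1 (vertical axis) is plotted against the GC content of the longest coding transcript (horizontal axis, %), as deposited on the left and after the length and GC correction on the right; coloured points are 43 members, and the grey line and band give the median and the middle 50% of all genes with a mean value of at least 5 in bins of GC content. The grey line falls from left to right as deposited and is flat after the correction, where Ndufs7 lies at -0.15 and Ndufc1 at -0.37.

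Other genes of complex I and its surroundings were read from gene lists. Of 12 further assembly genes that carry other names or symbols in the table, 0 passed the limma test, 6 had positive and 6 negative values, and the median was 0.00. Ndufaf8 had the smallest p among them, with 6.67, 7.22 and 7.06 untreated and 6.80, 6.35 and 6.80 with RvD1 (-0.33, SE 0.18; limma adjusted p = 0.345). Its groups overlapped.

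Of 12 regulators of respiratory genes, 11 were tested and 0 passed in limma. On the higher side 1 reached an unadjusted p under 0.05 in limma and on the lower side 3, against 10.3% and 9.65% of all tested genes. Gabpa, an ETS factor, read 9.92, 9.93 and 9.86 untreated and 10.12, 10.16 and 10.11 with RvD1 (0.23, SE 0.05; limma adjusted p = 0.0759), with groups apart. Its value after the length and GC correction was 0.04. Of the 11, 5 had positive and 6 negative values. Ppargc1b, Esrra and Pprc1 stood at -0.74 (SE 0.24), -0.31 (SE 0.09) and -0.22 (SE 0.06), with limma adjusted p of 0.145, 0.109 and 0.0903. After the correction these 3 were at -0.62, -0.11 and -0.16. Nrf1 and Yy1 stood at -0.10 (SE 0.06) and 0.09 (SE 0.07). Ppargc1a, the coactivator PGC-1alpha, was above 0 in 2 libraries and was not tested.

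Of 11 tested genes of the ubiquinone pool and of NADH supply, 0 passed in limma. On the lower side 1 reached an unadjusted p under 0.05 in limma, where 9.65% of all tested genes did. Sdhb, the iron-sulfur subunit of complex II, read 10.50, 10.62 and 10.62 against 10.45, 10.43 and 10.46 (-0.13, SE 0.05; limma adjusted p = 0.231). All RvD1 libraries were lower than all untreated ones, and after the length and GC correction the value was 0.01.

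Of 8 genes by which hypoxia-inducible factor is known to act on respiration, 2 rose, Hif1a and Bnip3, where 0.561% of all tested genes passed as higher. An unadjusted p under 0.05 in limma was reached by 3 of the 8 on the higher side and 0 on the lower, against 10.3% and 9.65% of all tested genes. Bnip3, a receptor for mitophagy, read 8.73, 8.53 and 8.63 untreated and 9.13, 9.09 and 9.11 with RvD1 (0.48, SE 0.07; limma adjusted p = 0.0337). Hif1a, a subunit of the factor itself, stood at 0.33 (SE 0.05; limma adjusted p = 0.0372). In both genes all RvD1 libraries were above all untreated ones. Each call held without RvD1 replicate 1 (limma adjusted p = 0.0412 for both) and ended without each of the 5 other libraries in turn, between 0.0729 and 0.146 for Bnip3 and between 0.0931 and 0.157 for Hif1a. Both calls also ended without the filter on low values (limma adjusted p = 0.0553 for both) and without a mean trend in the variance prior (0.178 for Bnip3 and 0.187 for Hif1a). After the length and GC correction they ended at 0.37 for Bnip3 (limma adjusted p = 0.111) and 0.15 for Hif1a (0.268). With the replicate number in the corrected fit as well, both passed (limma adjusted p = 0.0138 for Bnip3 and 0.0383 for Hif1a). AA467197, a paralog of Ndufa4, read 4.29, 4.84 and 5.19 untreated and 5.12, 5.67 and 3.45 with RvD1, with wide and overlapping groups (-0.02, SE 0.52). These lists were drawn up with earlier results of these data known, and their counts give no independent support to one another.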

How the data were processed

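The authors deposited 1 table of 38087 Ensembl genes in 6 libraries, whose column names say no more than normalized, per the file headers, and which are read here as log2 normalized read numbers: none lay below 0, and the antilogs summed to 12.4 to 12.8 M per library. The submitters' processing notes name TopHat2 2.0.7 and mm10. Of the counter and the normalization method, nothing is known here. Groups came from the sample titles.

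Genes above 0 in at least 3 libraries (18899) were tested with limma 3.58.1 in R 4.3.3, treatment alone, variance prior following the mean, two-sided, Benjamini-Hochberg adjusted; the test has 4 residual and 4.62 prior degrees of freedom and was tested on simulated data. Low values did not give whole reads in every gene (35.2% to 51.4% within 0.02 of a whole number), so no count test was run. Lengths, GC content, exons and copies (BLAST) came from GENCODE M21 on the same build, promoters from RefSeq. Splines with 4 degrees of freedom in log2 length and GC content, fitted on genes with a mean of at least 5, were subtracted per library for the correction. Members and lists were chosen with earlier results of these data known. Members described by library were those past the test, the 8 subunits and 3 assembly factors of smallest p, the extremes of fold change and mean, Ndufa4 and Ndufa4l2, and the smallest p of each further list; Ndufv1, Ndufv2 and Hif1a were added after their values were seen. Values of 1 member and of some markers are not reported here, though all counts include them, and that member is left out of the figures.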

Additional observations from a re-analysis of the deposited data

How the results depend on the processing

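The direction of the subunit genes held in every alternative: their median log2 fold change was -0.18, lay between -0.19 and -0.16 without each library in turn, and was -0.10 after the length and GC correction, with or without a replicate block. The number of members past the test did not hold. From 2 lower and 0 higher it went to 0 lower with no filter beyond 1 library above 0 (all genes 7 lower and 5 higher), 6 with a mean value of at least 5 (246 and 218), 1 with median centring (60 higher, beside 98 lower), 0 with a variance prior without trend (0 and 1) and 0 with the length and GC correction (15 and 17). Without each library in turn it lay between 0 and 4, against 0 to 212 lower and 0 to 239 higher over all genes. The fit without RvD1 replicate 1 gave the 4, and the 5 other fits gave 0 members. In these 5 fits, 14 to 19 members were lower at an unadjusted p under 0.05 in limma. The share of all tested genes at that threshold was 9.65% in the main fit and was not computed for these 5. A pseudocount of 8, quantile normalization and robust variance estimation gave 2, 3 and 2 members, all lower. Over all genes they gave 112, 129 and 127 lower and 108, 105 and 126 higher. The replicate block gave 11 lower and 1 higher members (847 and 1049 genes), and 3 lower members with the correction too (375 and 331 genes). Ndufa3 was among these 3 (limma adjusted p = 0.0333) and Ndufs7 was not (0.133). Deviations of same-numbered libraries correlated at 0.30, -0.08 and 0.42 over 13176 genes, and those of differently numbered ones at between -0.39 and 0.09. Libraries numbered 1 and 3 correlated best with their own number, and those numbered 2 did not. The labels state no pairing, so the main fit did not use the numbers. Whether same-numbered libraries share an origin was not tested. The median of the assembly factors, 0.01, lay between -0.066 and 0.044 without each library in turn. Ndufa4l2 went from -0.01 to 0.21 with the correction, with or without the block, and lay between -0.24 and 0.28 without each library in turn. The causes of these shifts were not tested. Stricter or looser filters alter both the number of genes adjusted over and the genes on which the variance prior is fitted. Sdhb went from -0.13 to 0.0059 with the correction, with or without the block, and AA467197 from -0.02 to 0.031 with the pseudocount and to between -0.49 and 0.62 without each library in turn. The other members and further genes described by library kept their sign in all alternatives.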
